A study of Mus musculus with 12 samples.

Results

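Of 10292 genes listed under both treatments, 9 are described here: Hoxa5, Hoxa7, Hoxa9, Hoxa10, Hoxa11, Hoxa13, Hoxd13, Tbx4 and Pitx1, whose rows carried the capital names HOXA5, HOXA7, HOXA9, HOXA10, HOXA11, HOXA13, HOXD13, TBX4 and PITX1. They were chosen on the CPM difference between genotypes that several of them had in these same libraries, so every genotype value below is a description with no test. RNA was sequenced from primary mouse embryonic fibroblasts of a hybrid 129/B6 background, either wild type (lincRNA-p21+/+, WT) or lacking lincRNA-p21, a long noncoding transcript induced by p53 (KO). Both genotypes were mock treated or received doxorubicin, labelled as 0.5 mM for 24 hours, giving 4 groups of 3 libraries; the unit of that dose is in doubt, as micromolar doses are usual. Doxorubicin is an anthracycline that breaks DNA and activates p53. The design text calls the replicates biological, and the labels do not say from which embryos, body regions or cultures they came, so the spread between libraries may be partly technical. No row carried the name of lincRNA-p21, and genotype was taken from the labels.

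Hox genes encode homeodomain transcription factors, and their order along each cluster matches the order in which they are used along the body axis and along the limb. The genes at the posterior end of the HoxA and HoxD clusters pattern the distal limb and the genital bud. Fibroblasts keep the Hox pattern of the body region they came from. Pitx1, a homeodomain factor, and Tbx4, a T-box factor that acts downstream of it, are transcribed in the hindlimb bud and not in the forelimb bud.

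The upstream bases of 4 of the genes are shown because they span the genotype pattern described below: Hoxa13, Hoxd13 and Tbx4 had KO libraries above WT under both treatments, whereas Hoxa7, from the same cluster as Hoxa13, did not. Each run is the 250 bases before the RefSeq transcription start (GRCm38.p6), written 5′ to 3′ on the gene's strand, with the TATA box letters TATAAA, the CAAT box letters CCAAT and the Sp1 core GGGCGG on either strand in capitals.
Hoxa13, chr6:52260881-52261130, - strand: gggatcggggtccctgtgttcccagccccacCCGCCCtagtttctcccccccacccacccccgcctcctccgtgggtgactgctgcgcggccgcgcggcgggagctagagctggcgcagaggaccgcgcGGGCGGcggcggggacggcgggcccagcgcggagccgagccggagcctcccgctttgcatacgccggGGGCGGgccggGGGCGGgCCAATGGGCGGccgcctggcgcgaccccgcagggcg
Hoxd13, chr2:74667975-74668224, + strand: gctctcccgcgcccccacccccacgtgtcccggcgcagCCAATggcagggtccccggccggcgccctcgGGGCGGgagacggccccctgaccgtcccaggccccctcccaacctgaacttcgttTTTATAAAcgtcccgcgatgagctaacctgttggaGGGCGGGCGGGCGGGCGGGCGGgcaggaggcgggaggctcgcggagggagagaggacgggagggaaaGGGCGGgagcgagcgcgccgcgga
Tbx4, chr11:85896515-85896764, + strand: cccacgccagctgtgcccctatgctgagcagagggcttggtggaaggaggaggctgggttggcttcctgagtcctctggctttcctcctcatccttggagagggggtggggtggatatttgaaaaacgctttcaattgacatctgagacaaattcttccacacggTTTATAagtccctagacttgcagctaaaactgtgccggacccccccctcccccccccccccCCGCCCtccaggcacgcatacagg
Hoxa7, chr6:52218574-52218823, - strand: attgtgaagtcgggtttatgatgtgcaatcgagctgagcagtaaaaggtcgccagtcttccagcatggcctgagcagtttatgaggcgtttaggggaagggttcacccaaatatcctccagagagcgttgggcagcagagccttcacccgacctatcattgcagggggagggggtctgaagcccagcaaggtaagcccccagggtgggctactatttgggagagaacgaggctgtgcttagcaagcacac
The Hoxa13 run was 80.0% G+C with 35 CpG dinucleotides, more than in 97.0% of the 32817 mouse promoters of that length. The Hoxd13 run was 74.4% G+C with 31 CpG. The Tbx4 run had 6 CpG and the Hoxa7 run 7, near the median of 6 over all promoters. GGGCGG occurred 5 times before Hoxa13, 7 times before Hoxd13 (overlapping copies counted) and 1 time before Tbx4, and 32.7% of all promoters held it. Of these 4 runs, TATAAA was found before Hoxd13 and Tbx4 and in 12.4% of all promoters. CCAAT was found before Hoxa13 and Hoxd13 and in 33.8%. Hoxa7 held none of these letters. TAATCC, the letters that Pitx factors bind, was in none of the 9 promoters of the 8 genes with an entry and in 6.25% of all promoters. AGGTGT, the core of the T-box motif, was in 1 promoter, that of Hoxa10, and in 11.8% of all. These letter matches describe the windows and show no binding.

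Values are CPM, the reads of a gene relative to all reads counted in that library. Since they are not divided by transcript length, levels are compared between libraries and not between genes. The libraries held 14327048 to 20511907 reads, and a member value rested on 39 to 1175 reads. The lowest CPM of a member, Hoxa13 at 2.61 CPM in WT mock replicate 2, came from 52 reads, with an exact Poisson 95% interval of 1.95 to 3.42 CPM that covers counting error only. Of 15 fibroblast markers, 14 were measured, Col1a1, Col3a1 and Pdgfra among them. Their summed CPM was 57287 to 80219 in the mock libraries and 37777 to 50295 after doxorubicin. By replicate number, the KO sum was 0.830, 0.848 and 0.967 times that of WT in mock cells. After doxorubicin it was 0.936, 0.895 and 1.01 times. The mean was higher in KO for 2 of the 14 markers in mock cells and 6 after doxorubicin. Over all genes that held for 66.6% and 54.2%. The tables list genes above 2 CPM in every WT library, so a gene low in WT was not analysed here, the forelimb gene Tbx5 and the hindlimb gene Isl1 included. In bulk RNA, fewer cells of a type and less RNA per cell cannot be told apart.

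Hoxa13 and Hoxd13, the members that pattern the digits, had the clearest separation of the groups. In mock cells, Hoxa13 stood at 2.72, 2.61 and 2.89 CPM in the WT libraries and at 8.79, 6.82 and 8.79 CPM in the KO libraries. Under doxorubicin, the WT libraries stood at 6.32, 6.24 and 5.46 CPM and those of the KO at 12.9, 11.0 and 10.1. The groups did not overlap, and their order was WT mock, WT doxorubicin, KO mock and KO doxorubicin. Hoxd13 was at 10.4, 10.2 and 16.5 CPM in WT mock and at 38.2, 32.5 and 38.8 CPM in KO mock. With doxorubicin, its WT values were 17.8, 22.8 and 27.5 CPM, below KO values of 52.9, 50.0 and 57.9. Its 4 groups held the same order, again with no overlap between neighbours. On the scale of log2(CPM + 1), KO minus WT was 1.28 (SE 0.15) for Hoxa13 and 1.52 (SE 0.20) for Hoxd13 in mock cells, and 0.81 (SE 0.19) and 1.22 (SE 0.18) after doxorubicin. In mean CPM, the KO was 2.97 times the WT for Hoxa13 and 2.96 times for Hoxd13 in mock cells, and 1.89 and 2.36 times after doxorubicin.

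Tbx4 had the widest genotype difference of the 9 in both treatments, and Pitx1 differed mainly in replicates 1 and 2. Tbx4 was at 4.54, 2.76 and 3.82 CPM in WT mock and at 19.4, 13.2 and 10.3 CPM in KO mock. Treated WT libraries held 6.73, 8.82 and 5.01 CPM of it, and treated KO libraries 28.2, 24.4 and 13.2. Every KO library lay above every WT library of its treatment, by 1.68 (SE 0.26) and 1.51 (SE 0.32) on the log2 scale, while the KO mock and KO doxorubicin groups overlapped. Pitx1 was at 4.54, 4.76 and 7.06 CPM in WT mock and at 14.3, 11.6 and 5.75 CPM in KO mock. Treated libraries had 6.80, 7.31 and 7.07 CPM where WT, and 16.7, 15.5 and 7.05 where KO. Replicates 1 and 2 of the KO were above all WT libraries, and replicate 3 was within the WT range in both treatments. Taken by replicate number, KO minus WT for Pitx1 was 1.46, 1.13 and -0.26 in mock cells and 1.18, 0.99 and -0.00 after doxorubicin (log2). Over all 3 replicates the difference was 0.78 (SE 0.33) and 0.72 (SE 0.31), and without replicate 3 of every group it was 1.30 and 1.08.

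**Figure D1:**
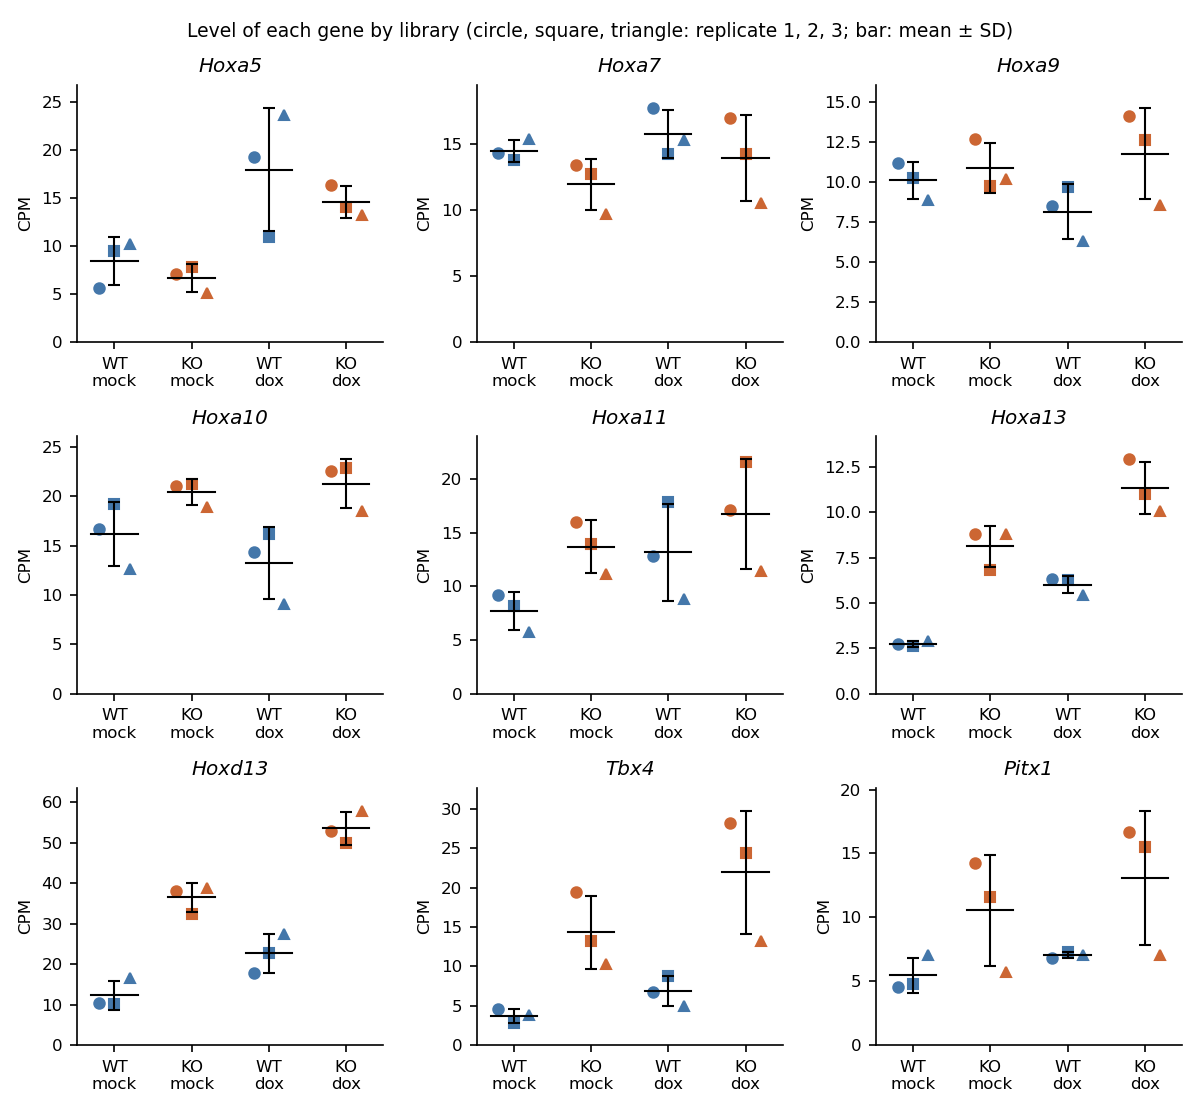
CPM of each of the 9 transcripts (y axis, linear, separate scale per panel) in the 4 groups, with points for single libraries, a bar at the mean and an error bar of 1 SD (n = 3). The 4 groups of Hoxa13 and of Hoxd13 do not overlap, whereas the genotype groups of Hoxa5 and Hoxa9 do in both treatments.

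Along the rest of the HoxA cluster, the genotype difference in mock cells was smaller toward the anterior genes. Hoxa11, which patterns the forearm and shank and the uterus, was at 9.21, 8.17 and 5.79 CPM in WT mock and at 16.0, 13.9 and 11.2 CPM in KO mock. Under doxorubicin the WT libraries had 12.8, 17.9 and 8.80 CPM and those of the KO 17.1, 21.7 and 11.5. The mock groups did not overlap and the doxorubicin groups did, with KO minus WT of 0.76 (SE 0.21) and 0.33 (SE 0.31). By replicate number the doxorubicin differences of Hoxa11 were 0.39, 0.26 and 0.35, with KO higher each time. With the replicate number as a block, the SE after doxorubicin was 0.11. Hoxa10, needed for the hindlimb's upper bone and the uterus, was at 16.7, 19.2 and 12.7 CPM in WT mock and at 21.1, 21.3 and 18.9 CPM in KO mock. Treatment left WT libraries at 14.4, 16.1 and 9.13 CPM, and KO libraries at 22.6, 22.8 and 18.5. For Hoxa10 the mock groups overlapped and the doxorubicin groups did not, with differences of 0.33 (SE 0.16) and 0.68 (SE 0.24). Hoxa9, which acts in the limb and in blood progenitors, ranged from 8.85 to 11.2 CPM in WT mock and from 9.75 to 12.7 CPM in KO mock. After doxorubicin it ranged from 6.29 to 9.65 CPM in WT and from 8.57 to 14.1 CPM in KO. Both pairs of groups overlapped, with differences of 0.10 (SE 0.15) and 0.47 (SE 0.25). By replicate number those of Hoxa9 were 0.17, -0.06 and 0.19 in mock cells and 0.67, 0.36 and 0.39 after doxorubicin. With the block the SE was 0.10 in mock cells and 0.13 after doxorubicin.

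Hoxa7 and Hoxa5, genes of the thoracic and of the neck and upper thoracic region, did not follow the posterior genes. Hoxa7 was at 14.3, 13.7 and 15.3 CPM in WT mock and at 13.4, 12.7 and 9.70 CPM in KO mock, so that KO lay just below WT with no overlap. Its doxorubicin groups, 14.2 to 17.7 CPM in WT and 10.5 to 17.0 CPM in KO, overlapped. The log2 differences were -0.27 (SE 0.15) and -0.19 (SE 0.22), and without replicate 3 of every group they were -0.10 and -0.03. Hoxa5 was at 5.58, 9.47 and 10.2 CPM in WT mock and at 7.13, 7.83 and 5.07 CPM in KO mock. In treated cells it had 19.3, 11.0 and 23.6 CPM where WT, beside 16.4, 14.1 and 13.2 where KO. Its genotype groups overlapped in both treatments, with differences of -0.28 (SE 0.26) and -0.23 (SE 0.28). Without replicate 3 of every group the direction turned, to 0.03 and 0.06.

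**Figure D2:**
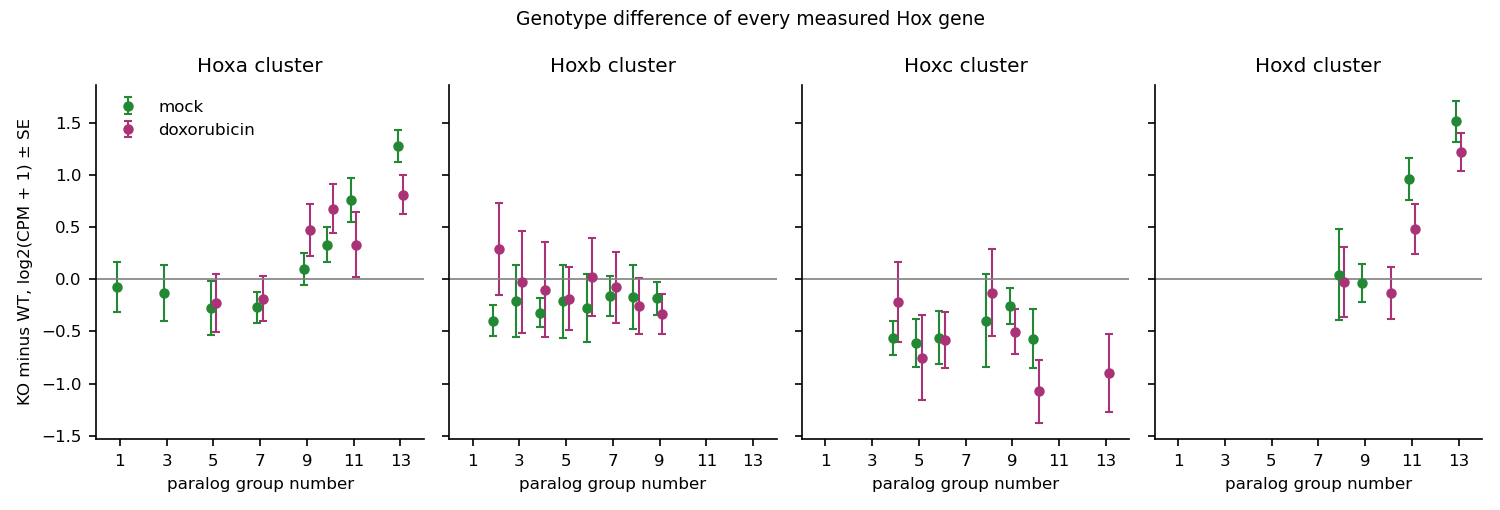
KO minus WT on the log2(CPM + 1) scale (y axis) for each measured Hox gene by its number in the cluster (x axis), 1 panel per cluster, in mock and doxorubicin cells, with SE bars. The highest values are those of Hoxd13 and Hoxa13 in mock cells, 1.52 and 1.28, while the measured Hoxc genes lie below 0.

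In mock cells 4 of the 9 genes had all KO libraries above all WT libraries (Hoxa11, Hoxa13, Hoxd13 and Tbx4) and 1 had them all below (Hoxa7), beside 8.25% and 1.74% of all genes of that table. After doxorubicin 4 were above (Hoxa10, Hoxa13, Hoxd13 and Tbx4) and 0 below, beside 9.7% and 6.64%. The median difference over the 9 was 0.76 and 0.68, against 0.06 and 0.03 over all genes, and 7 of the 9 had a higher mean in KO in each treatment, beside 66.6% and 54.2%. The genes were chosen for this contrast, so nothing is read from these counts. Among the Hox genes outside the list, Hoxd11, another distal limb gene, was at 3.42, 2.51 and 4.05 CPM in WT mock and at 8.91, 6.82 and 6.48 CPM in KO mock. Its KO minus WT was 0.96 (SE 0.20) in mock and 0.48 (SE 0.24) in doxorubicin cells, and the mock groups did not overlap. Hoxd10, measured after doxorubicin alone, was at -0.13 (SE 0.25). The mean of Hoxb genes was higher in KO for 0 of 8 in mock cells and 2 of 8 after doxorubicin. That of Hoxc genes was higher for 0 of 6 and 0 of 7. Hoxc10 was at -0.57 (SE 0.28) in mock and -1.08 (SE 0.30) in doxorubicin cells, where its groups did not overlap. Hoxc13, measured after doxorubicin alone, was at -0.90 (SE 0.38), and its groups overlapped. The small differences of Hoxd8 in both treatments, Hoxd9 in mock cells, and Hoxb3 and Hoxb6 after doxorubicin changed sign with quantile scaling or median centring.

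The row for Hoxa11os, the antisense transcript of Hoxa11, was at 5.93, 3.86 and 4.11 CPM in WT mock and at 12.1, 10.3 and 10.9 CPM in KO mock. Doxorubicin libraries had 6.87, 8.73 and 4.84 CPM where WT, and 15.0, 11.5 and 10.6 where KO, with no overlap of the genotypes in either treatment. The library kit kept strand, but whether the counting used it is not given in the sources used here, so reads of Hoxa11 and Hoxa11os cannot be told apart. Over 24 genes next to the loci, the 3 nearest measured on each side of HoxA on chromosome 6, HoxD on chromosome 2, Tbx4 on chromosome 11 and Pitx1 on chromosome 13, KO minus WT ran from -0.13 to 0.29 in mock cells (median 0.06). After doxorubicin it ran from -1.18 to 0.47 (median 0.12). The nearest genes were taken among those measured in each treatment, so the 24 genes differed in part between treatments. The lowest after doxorubicin was Tbx2, the T-box gene directly beside Tbx4, which was measured after doxorubicin alone. Its mean was 37.6 ± 16.4 CPM where WT against 17.0 ± 10.0 where KO (SD, n = 3). The groups overlapped, and by replicate number Tbx2 was lower in KO each time, at -1.52, -1.02 and -0.99 on the log2 scale, a difference as large as that of Hoxd13 in the other direction. Ppm1d, a phosphatase gene of the p53 response on the same side of Tbx4, was at -0.60 with every KO library below every WT library.

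Levels varied by replicate number, with KO replicate 3 the lowest of the KO libraries for 6 of the 9 genes in mock cells and 8 of 9 after doxorubicin. That library was the lowest of the KO libraries for 39.9% and 41.8% of all genes. WT replicate 3 was the lowest of the WT libraries for 3 and 5 of the 9, beside 34.3% and 39.3%. The difference between genotypes varied too, but not always in that order. For Hoxa10, KO minus WT by number was 0.32, 0.14 and 0.54 in mock cells and 0.62, 0.48 and 0.94 after doxorubicin, largest for number 3. For Hoxa13, KO minus WT by number was 1.39, 1.12 and 1.33 in mock cells, so the 3 were close. For Tbx4 it was 1.88, 1.92 and 1.23. Of 17 cartilage and bone markers, 5 were measured in the mock table and 8 in the other, and in mock cells their summed CPM was 266 to 711 for WT and 451 to 634 for KO. With doxorubicin the sums were 339 to 555 for WT and, without overlap, 558 to 654 for KO. The markers split, with 3 of 5 higher and 2 lower on average in KO in mock cells, and 4 of 8 higher and 4 lower with doxorubicin. Among the latter Col11a1 and Runx2 were higher in KO without overlap, by 0.92 and 0.32, and Comp was lower without overlap, at -1.05. Col2a1, the main collagen of cartilage, was at 9.00, 26.7 and 8.33 CPM in WT mock and at 40.0, 144 and 8.46 CPM in KO mock. With doxorubicin it had 33.0, 73.9 and 12.7 CPM where WT, against 55.8, 163 and 12.0 where KO. Replicate 3 of the KO was thus near the WT for Col2a1, as it was for Pitx1; Col2a1 was singled out after its values were seen. Of 12 skeletal muscle markers, 2 were measured (Acta1 and Des), and in mock cells their summed CPM was 75.9 to 434 for WT and 30.9 to 182 for KO. With doxorubicin it was 44.6 to 204 for WT and 22.6 to 52.6 for KO. These ranges overlapped, but by replicate number the muscle sum of the KO was below that of WT in 3 of 3 pairs in each treatment, at 0.407 to 0.493 times in mock cells and 0.257 to 0.507 times with doxorubicin. Of 9 endothelial, 11 blood, 11 epithelial and 10 neural markers, 3, 1, 3 and 3 were measured in mock cells, and the genotypes overlapped in the summed CPM of each. With doxorubicin they overlapped except for 2 endothelial markers, whose sum was 78.7 to 94.9 CPM for WT and 54.0 to 75.3 for KO. By replicate number, the endothelial sum was lower in KO in 3 of 3 pairs in each treatment. With doxorubicin the epithelial and blood sums were too, the epithelial one at 0.503 to 0.893 times WT. The part of these cell types in the genotype differences was not tested.

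**Figure D3:**
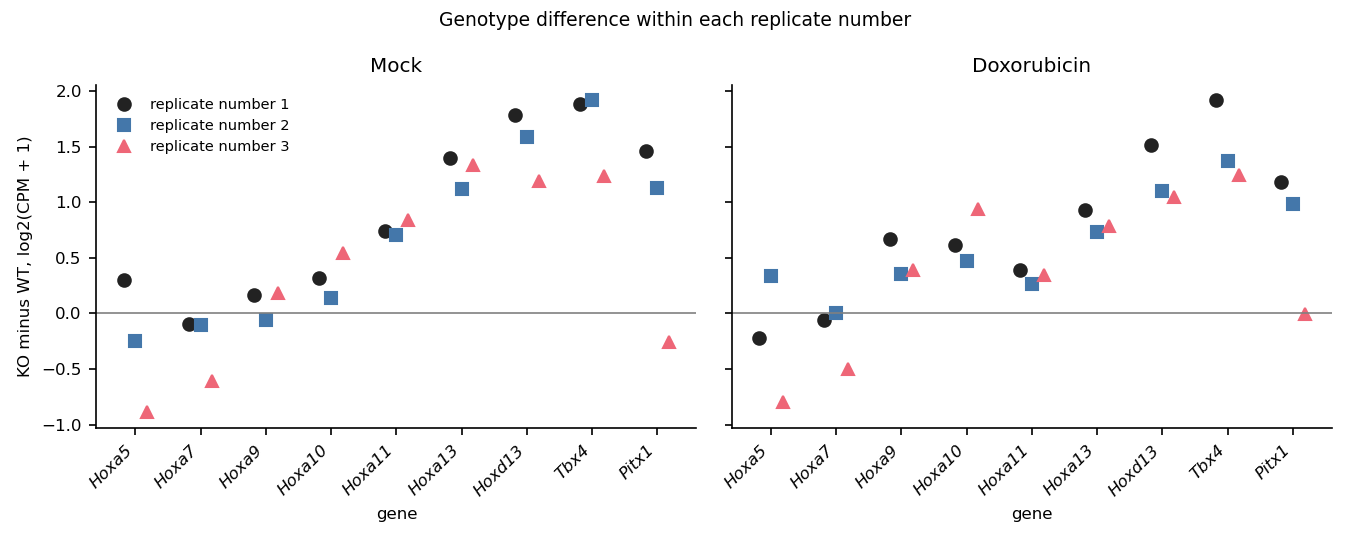
KO minus WT on the log2(CPM + 1) scale (y axis) for each of the 9 genes (x axis), 1 point per replicate number, in mock and in doxorubicin cells. The points of Hoxa13 lie close together, whereas replicate 3 of Pitx1 lies at or below 0.

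The genes were chosen on the genotype difference and not on doxorubicin against mock. The latter was tested within each genotype with limma over all 12 libraries and 10292 genes. The choice drew on these same libraries, so these tests and their comparison between genotypes are not independent of it. In WT cells 3 of the 9 rose (Hoxa5, Hoxa13 and Hoxd13) and 0 fell, beside 25.9% of all genes rising and 21.4% falling at a Benjamini-Hochberg adjusted p of 0.05. In KO cells 2 rose (Hoxa5 and Hoxa13) and 0 fell, beside 19.9% and 14.6%. The median change of the 9 was 0.67 in WT and 0.28 in KO, against 0.01 and 0.04 over all genes. The members' shares of 3 and 2 in 9 were thus near those of all genes. Markers of cell content changed in the same contrast. Of the 14 fibroblast markers 5 fell in each genotype (10 and 9 with the block) and 0 rose, and of 3 epithelial markers 2 rose in each. The part of cell content in the changes of the 9 genes was not tested.

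On the log2(CPM + 1) scale Hoxa5 had the largest change of the 9 under doxorubicin, 0.98 (SE 0.28) in WT cells with a limma adjusted p of 0.0141 and 1.03 (SE 0.28) in KO cells with a limma adjusted p of 0.0155. Its mean CPM was 2.13 times the mock level in WT and 2.18 times in KO, and every treated library lay above every mock library of its genotype. Without WT mock replicate 1 or WT doxorubicin replicate 3 the WT call was lost (limma adjusted p = 0.0608 and 0.0623), and without KO mock replicate 3 the KO call was lost (0.0564). Hoxa13 rose by 0.90 (SE 0.15) in WT, to 2.19 times the mock CPM, with a limma adjusted p of 0.000578. In KO it rose by 0.44 (SE 0.15), to 1.39 times, with a limma adjusted p of 0.0398. The KO call was present in 4 of 12 fits that each left out 1 library, with limma adjusted p from 0.0423 to 0.143. It was lost without any single mock library, without KO doxorubicin replicate 1 or 2, and with median centring (0.0721). The WT call was present in 12 of 12. Hoxd13 rose by 0.84 (SE 0.20) in WT, with a limma adjusted p of 0.00485 and in 12 of 12 such fits. In KO its change of 0.54 (SE 0.20) missed the threshold with a limma adjusted p of 0.0516, although the groups did not overlap; it passed without WT mock replicate 3 (0.0247), WT doxorubicin replicate 1 (0.0379) or WT doxorubicin replicate 3 (0.0416).

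Replicate numbers paired the libraries, and a fit with the number as a block gave 5 of the 9 rising in WT and 3 in KO, beside 33.6% and 29.6% of all genes. The block fit had 0 of the 9 falling, beside 30.1% of all genes in WT and 24.0% in KO. The added calls in WT were Hoxa11, with a change of 0.67 and a limma adjusted p of 0.00270 with the block against 0.0694 without it, and Tbx4, with 0.73 and 0.0151 against 0.0711. In KO the added call was Hoxd13, with a limma adjusted p of 0.00733. Pitx1, Hoxa7, Hoxa9 and Hoxa10 passed in neither genotype without the block, with changes of 0.34, 0.11, -0.29 and -0.29 in WT and of 0.28, 0.19, 0.09 and 0.05 in KO. For the test of whether the doxorubicin change differed between genotypes, limma called 0 of the 9 and 0.0% of all genes, with or without the block. At an unadjusted p under 0.05, 1 of the 9 and 468 of all genes passed. That 1 gene was Hoxa13, with a change smaller by 0.47 (SE 0.21) in KO and a limma adjusted p of 0.922.

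**Figure D4:**
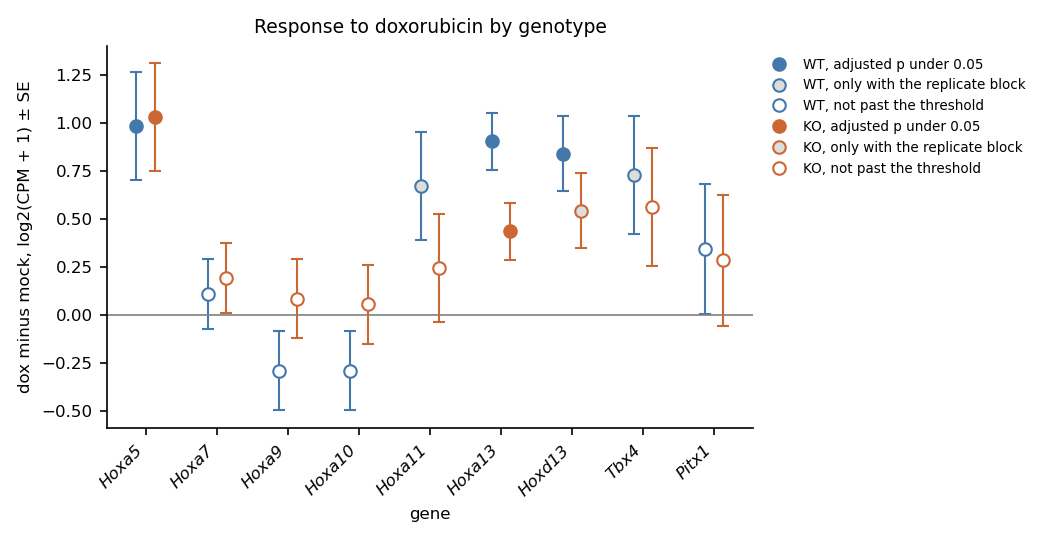
Doxorubicin minus mock on the log2(CPM + 1) scale (y axis) for each of the 9 genes (x axis) in WT and KO cells, with SE bars; filled points passed an adjusted p of 0.05 without the replicate block and grey points only with it. Hoxa5, Hoxa13 and Hoxd13 lie above 0 in both genotypes by more than their SE, and Hoxa9 and Hoxa10 in WT lie below 0.

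Counts of other genes are read beside the shares of all genes in that test, 25.9% rising and 21.4% falling in WT, 19.9% and 14.6% in KO, and with the block 33.6% and 30.1% in WT, 29.6% and 24.0% in KO. Hoxb genes fell for 3 of 8 in WT (Hoxb2 by 1.85, Hoxb3 by 1.27 and Hoxb9 by 0.59 on the log2 scale) and for 2 of 8 in KO, with 0 rising in either and medians of -0.65 and -0.63. With the block 5 and 4 fell. Of 6 Hoxc genes, 2 fell in WT (Hoxc4 and Hoxc8, by 0.94 and 1.49) and 0 in KO, and with the block 3 rose and 2 fell in WT, and 2 rose and 1 fell in KO. Hoxd11 rose by 0.96 (SE 0.22) in WT, with a limma adjusted p of 0.00417, and its change of 0.48 in KO missed the threshold at 0.112. The only other Hoxd gene outside the list in this test, Hoxd8, went the other way. Its change was -0.85 (SE 0.41) in WT and -0.92 (SE 0.41) in KO. It fell in both genotypes with the block and passed in neither without it.

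Of 25 limb bud transcription factors, 9 rose and 5 fell in WT, and 3 rose and 3 fell in KO. Their medians were 0.20 and 0.27. With the block 11 rose and 6 fell in WT, and 10 rose and 5 fell in KO. Beside those shares of all genes without the block, 5 of 25 falling in WT is near 21.4%. The 9 of 25 rising in WT is above 25.9%, and the 3 of 25 rising in KO is below 19.9%. With the block the KO reading turned, as 10 of 25 rising in KO is above 29.6%. The 11 of 25 rising in WT with the block is above 33.6%. Msx2, a homeobox gene of the distal limb mesenchyme, rose by 1.92 in WT and 1.69 in KO, and Irx3, needed in the early hindlimb bud, by 1.59 and 1.91. Twist2 fell by 1.47 and 1.02. Of 15 limb patterning signals and receptors, 3 rose and 5 fell in WT and 2 rose and 3 fell in KO, with medians of -0.21 and -0.05; with the block 6 rose and 7 fell in WT and 5 rose and 5 fell in KO. Cyp26b1, which breaks down retinoic acid in the distal limb, rose by 1.21 in WT and 1.15 in KO, and the ephrin receptor Epha3 fell by 2.45 and 2.41. Of 22 Trithorax and Polycomb regulators of Hox genes, 4 rose and 1 fell in WT and 2 rose and 3 fell in KO. Their medians were 0.02 and -0.04. With the block 5 rose and 5 fell in WT, and 3 rose and 5 fell in KO. The 3 of 15 signals and 4 of 22 regulators rising in WT were no larger a share than the 25.9% of all genes. With the block, the 6 of 15 signals rising in WT were above 33.6% and the 5 of 22 regulators below it. Eed, a core subunit of the Polycomb complex that methylates histone H3, rose by 1.08 in WT and 0.93 in KO, and Ezh2, its catalytic subunit, fell by 1.04 in KO. For no gene, Ezh2 included, did limma call the doxorubicin change different between genotypes.

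Likeness of pattern was measured as the root mean square difference of centred log2(CPM + 1) over the 12 libraries, and the nearest 2 genes outside the list were named for each gene whose log2 range exceeded 1, which left out Hoxa7. For Hoxa13 they were Hoxd11 at 0.261 and Hoxa11os at 0.262. For Tbx4 they were Hoxa11os at 0.430 and Prom1 at 0.454, and for Hoxd13 Il1rl1 at 0.298 and a row without a matched symbol at 0.379. Hoxa10 had Snrpb2 at 0.167 and Abl1 at 0.169, Hoxa9 had Trmt112 at 0.122 and Dmtf1 at 0.123, and Hoxa5 had Jph2 at 0.253 and Hyal2 at 0.271. For Pitx1 they were Pla2g4b at 0.282 and Frrs1 at 0.307, and for Hoxa11 Eps8l2 at 0.170 and Rab8b at 0.236. Within the 9, Hoxa9 and Hoxa10 were the closest pair at 0.182, and Hoxa13 and Hoxd13 stood at 0.281. The distance is not scaled to a gene's range, so genes that vary little lie close by construction. The log2 ranges were 1.05 and 1.23 for Hoxa9 and Hoxa10, and 1.95 and 2.40 for Hoxa13 and Hoxd13. These genes share libraries, so the distances describe pattern and not shared control.

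**Figure D5:**
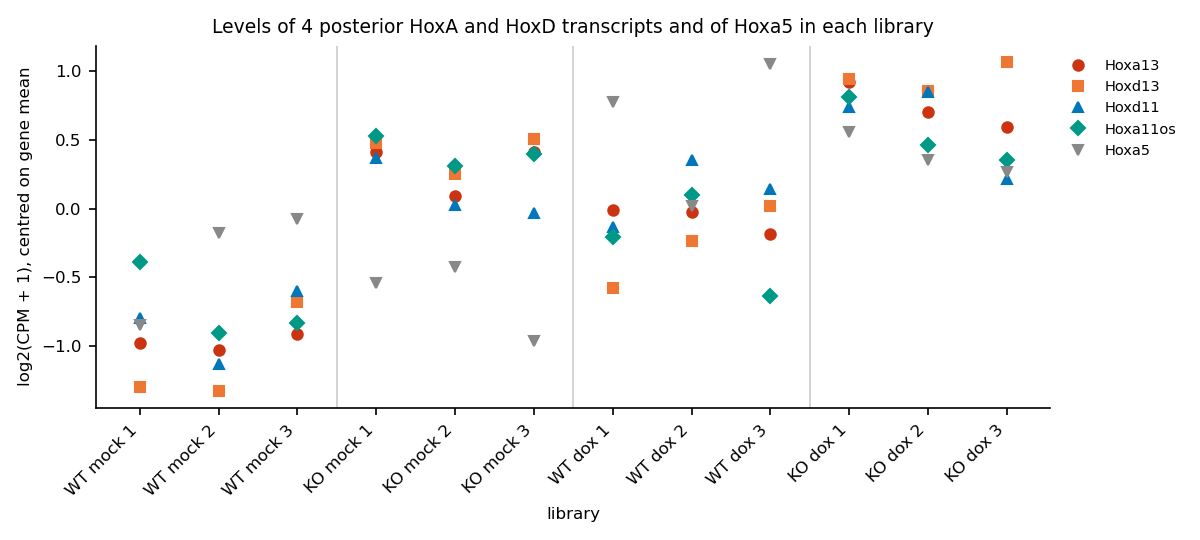
log2(CPM + 1) minus the gene's mean over 12 libraries (y axis) in each library (x axis, by group and replicate) for Hoxa13, Hoxd13, Hoxd11, Hoxa11os and Hoxa5. The mean of each of the first 4 is lowest in WT mock, while that of Hoxa5 is lowest in KO mock.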

How the data were processed

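The authors deposited CPM (the reads of a gene relative to all reads counted in its library) per gene in 2 tables, 1 per treatment, each with both genotypes, per the file headers. Named without a role in the submitters' processing notes are the assembly NCBIM37 and the tools edgeR, HTSeq and TopHat2 2.0.6; what each was used for is not given in the sources used here. Both tables hold genes above 2 CPM in all 3 WT libraries, and 10292 genes were in both. The kit was stranded, per the labels. CPM + 1 was put on the log2 scale and fitted with limma 3.58.1 in R 4.3.3, with 1 coefficient per group and Benjamini-Hochberg adjustment over all genes at 0.05. Doxorubicin was compared with mock in each genotype, and the difference of those changes was tested. Genotypes were compared within each treatment, and the SE of those differences leaves out the pairing by replicate number unless a block is named. Libraries of the same replicate number deviated together from their group means (correlations from 0.394 to 0.855 in every pair), so the numbers pair the libraries. Different numbers correlated negatively, which follows on balance from using deviations from a mean of 3 and is no separate support. The labels do not say what the numbers stand for. Genes were matched to RefSeq by symbol for 9833 rows and by synonym for 1208, and 440 were not matched. Named were the 9 members, called members of each list to the largest 4 by size, and the nearest 2 genes by likeness. The members and lists were chosen with earlier results of these data known. The result of 1 list is not reported here. Alternatives were another pseudocount (0.25), a filter at a mean of 5 CPM, quantile scaling, median centring, the block and left-out libraries. The edgeR quasi-likelihood test was planned and not run, since the deposited values are CPM. The test of doxorubicin against mock in WT was checked on simulated data with the same spread for every gene and no replicate-number effect. The other contrasts were not simulated.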

Additional observations from a re-analysis of the deposited data

How the results depend on the processing

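With the replicate number as a block, the members called higher by doxorubicin in WT went from 3 to 5, and in KO from 2 to 3; the calls gained were Hoxa11 and Tbx4 in WT and Hoxd13 in KO. In KO, median centring left 1, and leaving out replicate 1, 2 or 3 from every group, which was chosen after seeing the data, left 0, 1 and 0. Over the fits that left out 1 library the KO count ran from 0 to 3. In WT, Hoxa5 missed the threshold without replicate 1 or 3 of every group (limma adjusted p = 0.197 and 0.0621) and Hoxd13 without replicate 2 of every group (0.0723). Single libraries also decided 3 further calls: Hoxa11 in WT passed without WT doxorubicin replicate 3 (0.0273), and Tbx4 without KO doxorubicin replicate 3 in WT (0.0383) and in KO (0.0481). Directions of small changes that passed no test turned in 23 of 792 values. With median centring Hoxa7 in WT was at -0.0022 and Hoxa10 in KO at -0.030, where that centring shifted the median of all genes by -0.11 in WT and -0.08 in KO. Over the fits that left out 1 library, Hoxa9 in KO ran from -0.048 to 0.28 and Pitx1 in KO from -0.063 to 0.65. In the interaction, Pitx1 ran from -0.40 to 0.30, Hoxa5 from -0.25 to 0.29, Tbx4 from -0.37 to 0.15 and Hoxa7 from -0.063 to 0.26. Without replicate 1 of every group the interaction of Pitx1 was 0.053. Without replicate 2 of every group those of Hoxa5 and Tbx4 were -0.22 and 0.022, and Hoxa9 in KO was at -0.043. The cause was not tested. The edgeR quasi-likelihood fits with and without the block were not run. A member value rested on 39 to 1175 reads, which limits its precision most for Hoxa13 and Tbx4 in WT mock cells.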
